A study of Mus musculus with 2 samples.

Results

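The genes described encode the proteasome, the protease complex that degrades ubiquitin-tagged proteins. They were taken by symbol: each gene in both expression tables whose mouse symbol starts with Psma, Psmb, Psmc, Psmd, Psme or Psmg followed by a number. This gave 50 of 17215 listed genes. RNA sequencing had been done on MC3T3-E1, a purchased clonal line of mouse pre-osteoblasts from newborn calvaria, grown in serum-containing medium with formaldehyde, a reactive aldehyde that crosslinks protein and DNA. The FA-100 library came from cells at 100 µM and the FA-300 library from cells at 300 µM. Each dose had 1 library, and the labels give neither a genetic modification nor the length of exposure. Cells without formaldehyde were not analysed here. Without replicates no difference below has a measured error beyond counting, and no p-value is given.

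The proteasome is a barrel with caps. The 20S core is built of rings of alpha subunits (Psma genes), which form the gate, and rings of beta subunits (Psmb genes), some of which carry the protease sites. The 19S regulatory particle binds ubiquitin chains and unfolds the substrate: its base holds a ring of ATPases (Psmc genes) and large scaffold subunits, and its lid (most Psmd genes) removes the ubiquitin. Other caps (Psme genes) open the core without ATP, chaperones (Psmg genes and some Psmd genes) guide assembly, and interferon exchanges the catalytic beta subunits for those of the immunoproteasome, which favours peptides for antigen presentation. In osteoblasts the proteasome sets the turnover of lineage regulators such as RUNX2.

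Levels are FPKM, sequenced fragments per kilobase of a transcript, relative to all those mapped in the library, so that levels of different genes can be compared per length. Throughout, a pair of levels gives 100 µM first and 300 µM second. Ratios are log2 of the level at 300 µM over that at 100 µM, after adding 1 FPKM to both, for genes whose mean reached 1 FPKM. A gene at or beyond 2-fold on this scale is called higher or lower. The low values placed the depth at about 18500000 and 19400000 fragments. Of the 10123 genes compared, 6.09% were called higher and 29.8% lower, and the median log2 ratio was -0.30. Summed FPKM was 532944 and 691521, so a gene that kept its share of the sum has a log2 ratio of 0.38. A scale of equal sums moves that value to 0. In bulk RNA, fewer cells of a type and less RNA per cell cannot be told apart.

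The label of the line was set against markers. Of 8 osteoblast markers 7 were compared, 3 with log2 ratios above 0 and 4 below. All 7 were within 2-fold after adding 1 FPKM, Runx2 only narrowly (-0.97). Col1a1 stood at 2065 and 1714 FPKM, Runx2 at 7.99 and 3.6 FPKM and Sp7 at 7.21 and 9.47 FPKM, while Bglap was listed at 0 at 100 µM and stood at 0.49 FPKM at 300 µM. The blood cell marker Ptprc stood at 0.03 and 0.05 FPKM. The 7 macrophage and blood markers summed to 22.6 and 28.7 FPKM, with Adgre1 and Tyrobp listed at 0. Within that sum Lyz2 stood at 13.2 and 26.51 FPKM, while Cd14, at 6.36 and 0.94 FPKM, and Cd68, at 2.57 and 0.77 FPKM, were called lower. The adipocyte markers summed to 0.33 and 1.19 FPKM and the endothelial markers to 0.16 and 0.10 FPKM. The 5 chondrocyte markers summed to 383 and 360 FPKM, nearly all of it Col2a1, at 321.7 and 350.1 FPKM, and Sox9, called lower at 61.44 and 9.78 FPKM, while Acan and Matn1 were listed at 0. The part of other cell types in the results was not tested.

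Of the 50 proteasome genes 47 were compared, and most differed by less than 2-fold. Called higher were 2 (4.26% of the 47, beside 6.09% of all genes) and called lower were 3 (6.38%, beside 29.8%). Beside genes of similar level and length, the difference in the percent called lower was small. These 462 genes lay between the members' quartiles in mean level (38.8 to 134.7 FPKM) and in length (1136 to 2068.5 bases). Of them 7.36% were called higher and 7.58% lower, with a median log2 ratio of 0.28. The 2 higher members, Psmb8 and Psmb9, encode catalytic subunits of the immunoproteasome. The 3 lower members were Psme3 and Psme4, which encode activator caps, and Psmg3, which encodes an assembly chaperone. The median log2 ratio of the 47 was 0.34 and 34 were above 0, but on a scale of equal sums the median was -0.018 and 22 were above 0. Proteasome mRNA made up 0.828% of all FPKM at 100 µM and 0.791% at 300 µM. The 3 genes not compared were Psma8, a testis alpha subunit listed at 0 in both, Psmb11, a thymus beta subunit at 0.20 and 0.50 FPKM, and Psme2b, a near copy of Psme2 at 0.98 and 0.12 FPKM.

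**Figure D1:**
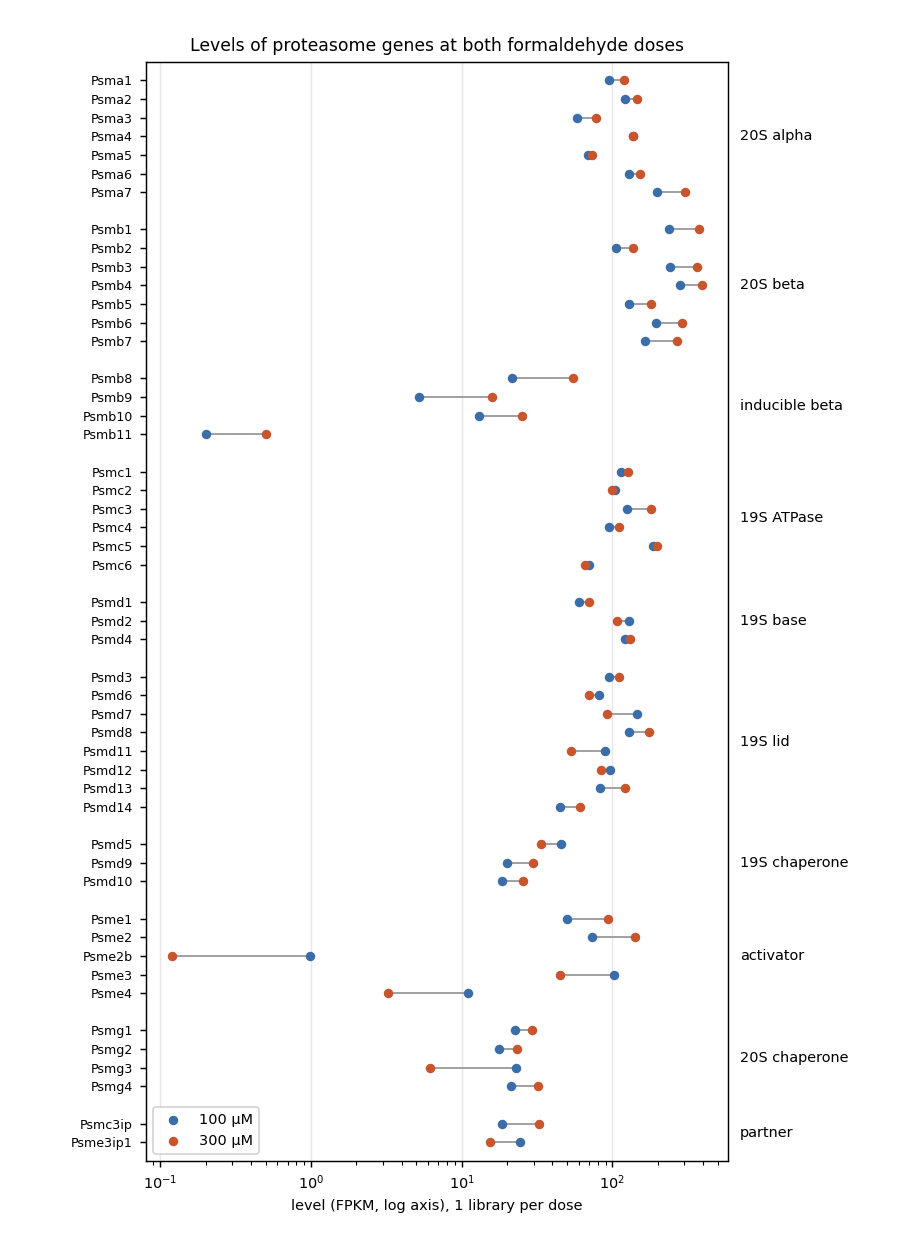
Level of each proteasome gene in FPKM on a log axis, with 1 point for the library at 100 µM and 1 for the library at 300 µM, grouped by class. Constitutive core and regulatory particle genes lie between 44.91 and 389.8 FPKM. The inducible beta subunits lie at or below 55.04 FPKM, which overlaps the lowest regulatory particle genes, and Psme3, Psme4 and Psmg3 lie well to the left at 300 µM. Psma8, listed at 0, is not drawn.

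Subunits of 1 particle did not have equal mRNA levels. The 14 constitutive core genes compared ran from 57.95 to 282.3 FPKM at 100 µM and from 72.8 to 389.8 FPKM at 300 µM, with Psmb4 the most abundant in both libraries. The 17 regulatory particle genes taken by symbol ran from 44.91 to 186.5 FPKM and from 53.08 to 197.8 FPKM. The ATPase gene Psmc5 was the most abundant of these 17. Across the 47 genes the order of levels was much alike in the libraries (Spearman's rho 0.91, a description).

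Constitutive beta subunit genes were the most uniform class before any correction for length and GC content. Their 7 log2 ratios lay between 0.37 and 0.69, with a median of 0.57 and an SD over genes of 0.11. On a scale of equal sums 6 of 7 were still above 0, and Psmb2 was at -0.0037. The catalytic subunits come from Psmb5 (the chymotrypsin-like site), Psmb6 (the caspase-like site) and Psmb7 (the trypsin-like site). Psmb5 stood at 128.2 and 181.1 FPKM (0.50), Psmb6 at 193.8 and 288.8 FPKM (0.57) and Psmb7 at 164.8 and 267.3 FPKM (0.69). All 3 were thus higher at 300 µM without reaching 2-fold. Of the 4 structural subunit genes, Psmb4 and Psmb2 had lower ratios than these. Psmb1 stood at 235.6 and 373.2 FPKM (0.66) and Psmb3 at 242.4 and 361.9 FPKM (0.58). Psmb4 stood at 282.3 and 389.8 FPKM (0.46) and Psmb2 at 106.1 and 137.3 FPKM (0.37). These transcripts are short (median 899 bases). With the trend of all genes with length and GC content removed, on a scale that keeps the median gene at -0.30, the class median was -0.31. Other annotated genes' transcripts hold 57.1% of the 50-base words of Psmb5 and 55.8% of those of Psmb3, and Nek6 holds 28.1% of those of Psmb7, so these 3 levels are uncertain.

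Psmb5 and Psmb6 are shown with the stretch before the start site. Each holds the core of the antioxidant response element, TGACNNNGC, through which the factors NRF1 and NRF2 act. This core was no more common in members with a window (11.9%) than in all genes (11.5%). It was also in Psmd9 (log2 ratio 0.55), Psmc6 (-0.082) and Psmd12 (-0.19). Each window is the 250 bases before the RefSeq start site (GRCm38.p6), 5′ to 3′ on the gene's strand, with the matching letters in capitals. Psmb5 lies at chr14:54617996-54618245, minus strand, and its match ends 38 bases before the start. Psmb6 lies at chr11:70525107-70525356, plus strand, and its match ends at the start.
Psmb5: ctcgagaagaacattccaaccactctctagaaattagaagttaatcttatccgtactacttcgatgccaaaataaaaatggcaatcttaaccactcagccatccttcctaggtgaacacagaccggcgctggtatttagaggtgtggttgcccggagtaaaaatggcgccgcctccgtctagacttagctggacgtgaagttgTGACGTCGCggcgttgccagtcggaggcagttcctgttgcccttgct
Psmb6: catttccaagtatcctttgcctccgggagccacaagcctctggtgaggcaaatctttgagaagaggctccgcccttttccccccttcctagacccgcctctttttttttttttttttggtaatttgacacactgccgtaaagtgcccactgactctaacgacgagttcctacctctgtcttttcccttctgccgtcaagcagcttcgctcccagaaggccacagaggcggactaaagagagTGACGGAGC

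Alpha subunit genes had a lower median ratio, 0.26, which becomes -0.11 on a scale of equal sums. With the length and GC trend removed the order reversed, with -0.20 for alpha and -0.31 for constitutive beta genes. Psma7 stood at 198.3 and 301.8 FPKM (0.60), the highest level and the highest ratio of the class. Psma3, whose level was the lowest at 100 µM, stood at 57.95 and 78.18 FPKM (0.43). Psma4 showed nearly equal levels, 137.0 and 136.0 FPKM (-0.011). The remaining 4 lay between these. Psma1 stood at 95.41 and 118.6 FPKM (0.31) and Psma2 at 120.9 and 144.8 FPKM (0.26). Psma6 stood at 128.7 and 152.2 FPKM (0.24) and Psma5 at 68.71 and 72.8 FPKM (0.082). Of these, Psma1, Psma2, Psma4, Psma5 and Psma6 were below 0 with equal sums. Other transcripts hold 55.4% of the words of Psma5 and 31.5% of those of Psma4.

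Regulatory particle genes were more mixed. The ATPase subunits, which pull the substrate into the core, are encoded by 6 genes with a median of 0.12, or -0.25 with equal sums. Psmc3 was the member highest by ratio, at 125.0 and 180.8 FPKM (0.53), and the only 1 of the 6 above 0 with equal sums. Psmc5 stood at 186.5 and 197.8 FPKM (0.085), Psmc1 at 114.3 and 127.7 FPKM (0.16) and Psmc4 at 94.9 and 110.6 FPKM (0.22). Psmc2 and Psmc6 were close to level, at 103.5 and 99.42 FPKM (-0.057) and at 69.77 and 65.86 FPKM (-0.082). The base also holds scaffolds and a receptor. Psmd1, a scaffold, stood at 60.35 and 69.65 FPKM (0.20), and Psmd2, the scaffold that docks shuttle proteins, at 127.9 and 107.3 FPKM (-0.25). Psmd4, a receptor of ubiquitin chains, stood at 120.3 and 131.7 FPKM (0.13). All 3 were below 0 with equal sums.

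The lid held ratios of both signs, 4 above 0 and 4 below. Psmd14, which encodes the metalloprotease that cuts ubiquitin off the substrate, stood at 44.91 and 61.09 FPKM (0.44). Psmd7, which encodes its partner in the lid, stood at 145.1 and 92.64 FPKM (-0.64). The dimer's genes thus had opposite directions, and kept them on each of the 4 scales tried. Psmd11, which encodes another lid subunit, had the lowest ratio of the core and regulatory particle. It stood at 89.69 and 53.08 FPKM (-0.75, 95% counting interval -0.81 to -0.68). With equal sums Psmd7 and Psmd11 were beyond 2-fold (-1.01 and -1.11). The other structural lid genes split too. Psmd13 stood at 82.46 and 120.7 FPKM (0.54), Psmd8 at 129.2 and 175.4 FPKM (0.44) and Psmd3 at 94.24 and 110.8 FPKM (0.23). Psmd6 stood at 81.06 and 70.18 FPKM (-0.21) and Psmd12 at 96.0 and 83.86 FPKM (-0.19). Psmd3 changed sign with equal sums, and Psmd6 and Psmd12 did after centring on the median gene. Summed over these lid genes, the levels were 763 and 768 FPKM. That sum leaves out the lid gene Sem1 (396.8 and 706.8 FPKM), which the symbol rule did not take.

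Psmd11 is shown because it had the lowest ratio of the particle and holds the ETS core, CCGGAAG, a motif of ETS factors. The window is chr11:80428365-80428614, plus strand, and the match, in capitals, reads on the opposite strand and ends 4 bases before the start.
Psmd11: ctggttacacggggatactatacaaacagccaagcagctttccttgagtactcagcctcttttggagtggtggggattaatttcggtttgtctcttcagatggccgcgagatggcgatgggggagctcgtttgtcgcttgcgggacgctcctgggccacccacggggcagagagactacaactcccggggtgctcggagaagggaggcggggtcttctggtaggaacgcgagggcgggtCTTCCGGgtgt

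Core genes had higher ratios than regulatory particle genes. The median was 0.44 over 14 core genes and 0.13 over 17 regulatory particle genes, a difference of 0.32. A change of scale moves both medians almost equally, so the 4 scales tried could not alter this difference. In summed FPKM the core stood at 2160 and 3004 (1.39 times) and the regulatory particle at 1765 and 1859 (1.05 times). The mRNA of these 17 regulatory particle genes thus equalled 81.7% of core mRNA at 100 µM and 61.9% at 300 µM. The symbol rule did not take Sem1, at 396.8 and 706.8 FPKM, or Adrm1, at 139.0 and 156.4 FPKM, which also encode particle subunits. The sums and percentages therefore do not cover the whole particle. Transcript length moved with this difference, the median being 1162.5 bases for the core and 1636 bases for the regulatory particle. With the length and GC trend removed the difference was -0.026.

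**Figure D2:**
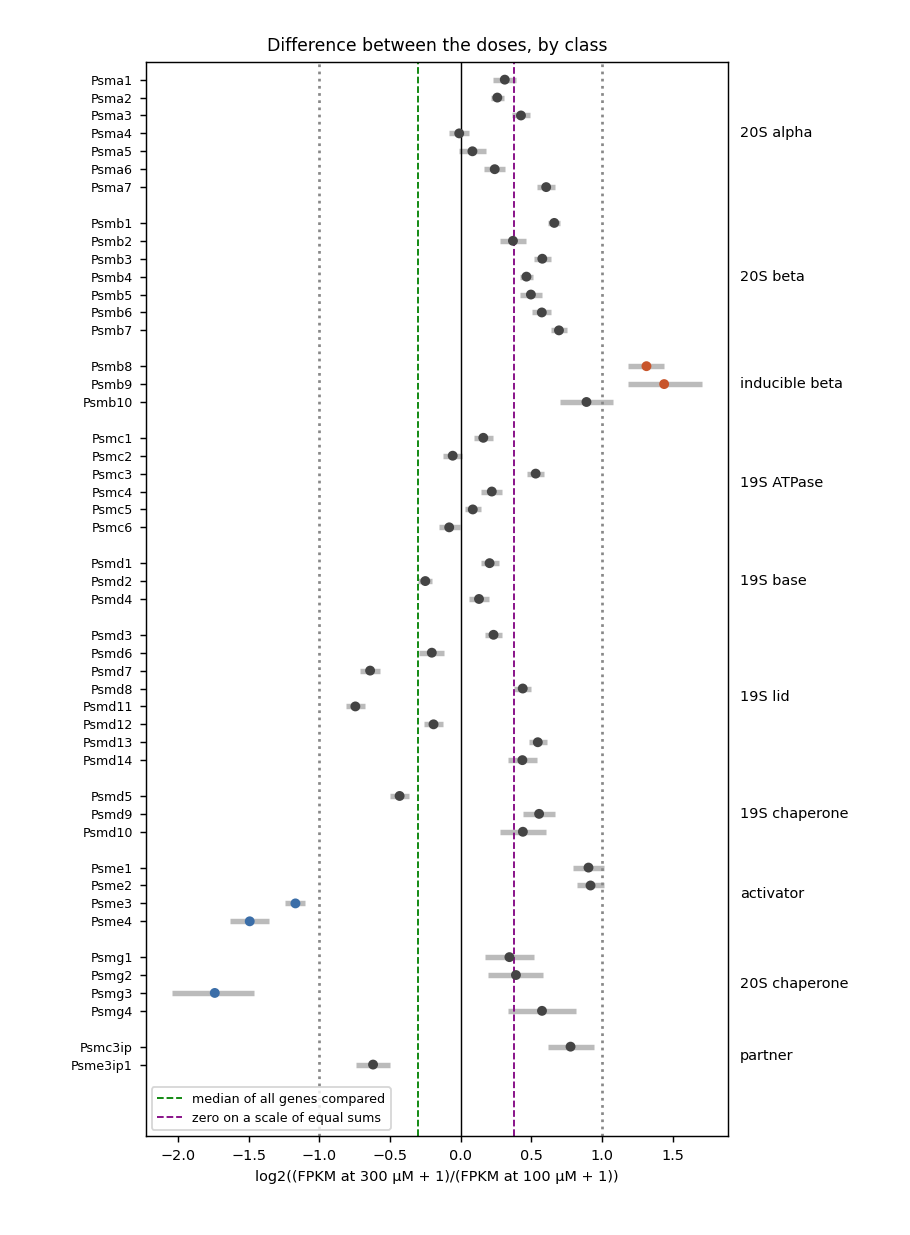
Log2 ratio of 300 µM over 100 µM for the 47 genes compared, by class. Points are coloured by call, bars are 95% counting intervals from the estimated reads, dotted lines mark 2-fold, and dashed lines mark the median of all genes (-0.30) and the zero of a scale of equal sums (0.38). Constitutive beta genes cluster, lid genes spread from -0.75 to 0.54, and Psmb8 and Psmb9 lie beyond 2-fold.

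The immunoproteasome genes had the highest median ratio of the classes, 1.31. Psmb8 (LMP7), whose product takes the place of that of Psmb5, stood at 21.55 and 55.04 FPKM (1.31, 95% counting interval 1.19 to 1.44). Psmb9 (LMP2), which replaces Psmb6, stood at 5.25 and 15.94 FPKM (1.44, interval 1.19 to 1.7), from about 131 and 418 reads. Psmb10 (MECL-1), which replaces Psmb7, stood at 13.05 and 25.02 FPKM (0.89, interval 0.70 to 1.08). All 3 were above 0 on each scale tried. Psmb8 came within 2-fold with equal sums (0.95), and both Psmb8 and Psmb9 did so with the length and GC trend removed (0.94 and 0.93), where Psmb10 had 0.37.

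The inducible subunits stayed minor beside the constitutive ones. Psmb8 mRNA equalled 16.8% of Psmb5 mRNA at 100 µM and 30.4% at 300 µM. Psmb9 equalled 2.71% and 5.52% of Psmb6, and Psmb10 equalled 7.92% and 9.36% of Psmb7. Summed over the 3 pairs the share was 8.19% and 13.0%. A share of this kind does not depend on how the libraries are scaled to each other.

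**Figure D3:**
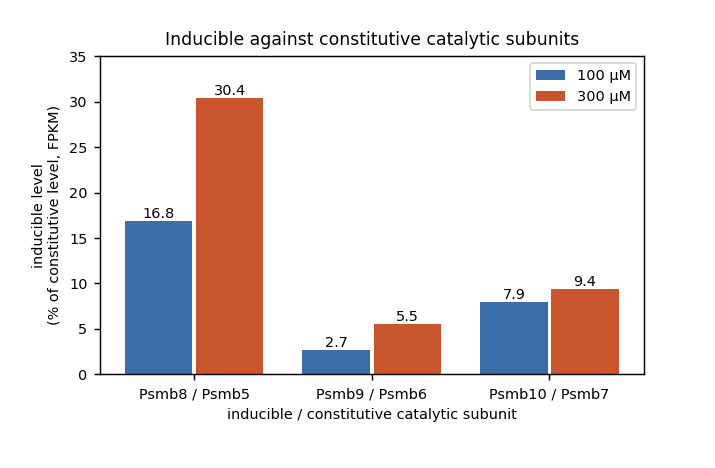
Level of each inducible catalytic subunit gene as a percent of the constitutive gene it replaces, from FPKM, with 1 library per dose and no error bars. All 3 shares are larger at 300 µM: 16.8% and 30.4% for Psmb8, 2.71% and 5.52% for Psmb9, and 7.92% and 9.36% for Psmb10.

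Psmb9, the peptide transporter gene Tap1, Psmb8 and Tap2 lie in a row in the major histocompatibility complex. The window of Psmb8 holds a gamma-activated site, TTCNNNGAA, a palindrome of interferon-gamma response elements. Such a site was in 4.76% of members with a window and in 8.13% of all genes. The match reads TTCCCAGAA and ends 88 bases before the RefSeq start (window chr17:34197945-34198194, plus strand, GRCm38.p6).

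Genes of interferon-gamma signalling and antigen presentation did not share 1 direction. Of 13 compared, 0 were called higher (6.09% of all genes were) and 2 lower (29.8%), with a median of 0.22. These counts depend on the scale. Centring on the median gene gave 2 higher and 2 lower, beside 1472 and 2261 of 10123 genes. A TMM factor gave 4 and 1, beside 1734 and 2288, and equal sums 0 and 4, beside 219 and 3847. The lower genes were Ifngr1, a receptor chain, at 28.24 and 6.2 FPKM (-2.02), and Jak2, its kinase, at 8.24 and 2.75 FPKM (-1.30). Irf1, a transcription factor of the pathway, stood at 10.07 and 8.31 FPKM (-0.25). The neighbours of the inducible subunit genes differed: Tap1 stood at 31.45 and 16.71 FPKM (-0.87) and Tap2 at 13.83 and 26.85 FPKM (0.91). Tap1 holds 12.5% of the words of Psmb9, so reads of the pair could be divided between them. The class I genes H2-D1, B2m and H2-K1 had log2 ratios of 0.70, 0.67 and 0.58.

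Activator genes had ratios of both signs. Psme1 and Psme2 encode the subunits of the interferon-inducible 11S cap, and 1 gene, Emc9, lies between them. Psme1 stood at 49.81 and 94.03 FPKM (0.90, 95% counting interval 0.80 to 1.01). Psme2 stood at 73.71 and 140.1 FPKM (0.92, interval 0.82 to 1.01), and Psme2b holds 59.3% of its words. After centring on the median gene both passed 2-fold (1.20 and 1.22), and with the length and GC trend removed they had 0.25 and 0.15. These 2, with Psmb10, were the closest to the 2-fold threshold from within it, and Psme3 was the closest from beyond it. Psme3 encodes the related nuclear cap and stood at 101.7 and 44.65 FPKM (-1.17, interval -1.24 to -1.10). After centring on the median gene it came within 2-fold (-0.87). Psme4 encodes PA200, a large single-chain nuclear cap, and stood at 11.02 and 3.27 FPKM (-1.49, interval -1.63 to -1.36). Its transcript is the longest of the members, at 6491 bases, and with the length and GC trend removed it had -0.89. Psme1 mRNA equalled 49.0% of Psme3 mRNA at 100 µM and 210.6% at 300 µM.

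Psme3 is shown as the most abundant member called lower. In its window, chr11:101315963-101316212, plus strand, the capitals mark an ETS core and, near the start, a CCAAT box on the opposite strand.
Psme3: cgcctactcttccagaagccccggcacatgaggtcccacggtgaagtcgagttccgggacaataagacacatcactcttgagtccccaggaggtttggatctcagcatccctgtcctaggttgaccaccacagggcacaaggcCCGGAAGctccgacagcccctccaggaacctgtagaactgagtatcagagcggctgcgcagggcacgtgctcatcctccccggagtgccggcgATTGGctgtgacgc

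Assembly chaperone genes were low, and Psmg3 stood apart. Psmg1 and Psmg2 encode a pair that starts the alpha ring, and stood at 22.7 and 29.08 FPKM (0.34) and at 17.62 and 23.4 FPKM (0.39). Psmg3 and Psmg4 encode the second pair. Psmg4 stood at 21.25 and 32.13 FPKM (0.57). Its partner Psmg3 stood at 23.09 and 6.21 FPKM (-1.74, 95% counting interval -2.04 to -1.46), from about 378 and 106 reads, the lowest ratio of the members compared. Psmg3 remained beyond 2-fold on each scale tried and with the length and GC trend removed (-2.56), while another annotated gene, Gm26938, holds 22.7% of its words. The chaperones of the 19S base also had ratios of both signs, but all were within 2-fold. Their range was 0.99, beside 2.31 for the Psmg genes. Psmd9 stood at 19.85 and 29.61 FPKM (0.55), Psmd10 at 18.62 and 25.6 FPKM (0.44) and Psmd5 at 45.37 and 33.35 FPKM (-0.43).

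The symbol rule also took 2 genes whose products are not subunits. Psmc3ip, a cofactor of meiotic recombination, stood at 18.57 and 32.52 FPKM (0.78), and Mlx holds 27.1% of its words. Psme3ip1 encodes a protein that binds the nuclear cap and stood at 24.37 and 15.5 FPKM (-0.62). Without both, the members' median was 0.34.

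Longer members had lower ratios, as longer genes did in general. Spearman's rho between length and ratio was -0.45 over 47 members and -0.41 over 10093 genes, a description over genes of the same 2 libraries. Members of up to 1500 bases had a median of 0.44 (25 genes), beside 0.52 for all genes of that length. Members of over 1500 to 3000 bases had 0.23 (19 genes), beside -0.11. The 3 members of over 3000 bases had -0.43, beside -0.77. With the length and GC trend removed the members' median was -0.22, beside -0.30 for all genes. The members called were then Psmd7, Psme3 and Psmg3, all lower, while 551 of all genes were called higher and 2619 lower. The part of RNA quality in the trend was not tested.

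**Figure D4:**
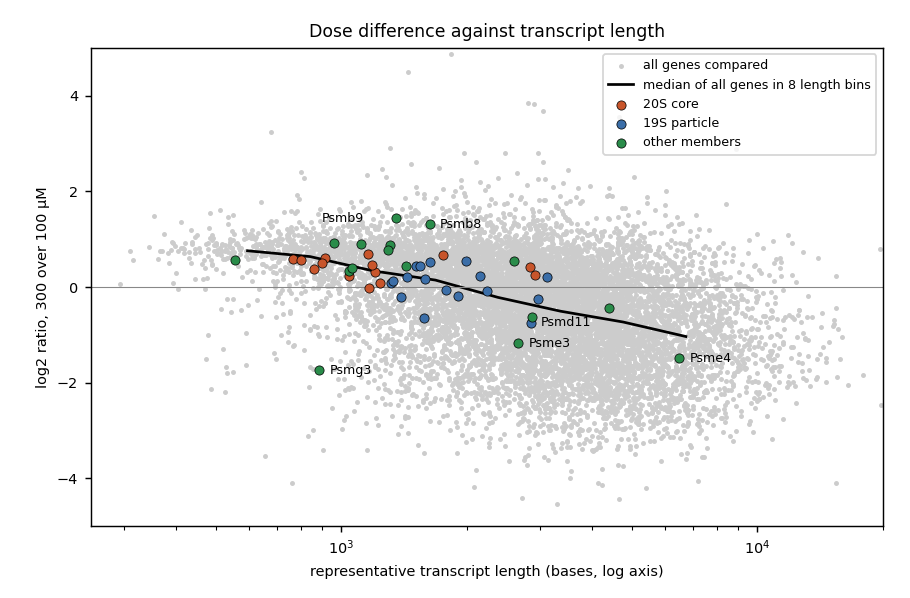
Log2 ratio of 300 µM over 100 µM against transcript length on a log axis, with all genes compared in grey, their median in 8 length bins as a line, and proteasome genes coloured. 9 genes outside the axes are not drawn. Psmg3 and Psme3 lie below the line, and Psmb8 and Psmb9 above it.

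Promoter windows were found for 42 of the 50 members, and 5 motifs were searched on both strands, counting a gene once if any of its windows matched. The ETS core CCGGAAG was in 13 of 42 members (31.0%) and in 7.83% of 27025 genes. It was in 8 of 14 regulatory particle genes and 1 of 11 core genes with a window. The CCAAT box was in 38.1% of members and 37.5% of all genes, and in 6 of the 11 core genes. The antioxidant response element core TGACNNNGC was in 5 members (Psmb5, Psmb6, Psmc6, Psmd9 and Psmd12), or 11.9%, and in 11.5% of all genes. The interferon-stimulated response element core GAAANNGAAA was in Psmb3, Psmd4 and Psmd9 and in 3.46% of genes, and the gamma-activated site TTCNNNGAA in Psmb8 and Psmg1 and in 8.13% of genes. Matched letters do not overlap another searched motif in the printed windows, and a match describes letters only.

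Among regulators of proteasome genes, the NRF1 pathway was mostly lower. NRF1 (Nfe2l1) is made at the endoplasmic reticulum, drawn out by VCP, stripped of sugars by NGLY1 and cut by DDI2, and then acts on proteasome genes together with small MAF proteins. Of the 9 genes listed for this pathway, among them Nfe2l2, 7 were called lower (29.8% of all genes were) and 0 higher (6.09%). The list median was -1.69. On the other scales tried 6 to 8 were lower, beside 2261 to 3847 of 10123 genes. Nfe2l1 stood at 73.14 and 17.25 FPKM (-2.02), and Nfe2l2, which encodes the related NRF2, at 74.62 and 6.54 FPKM (-3.33). The protease gene Ddi2 stood at 13.72 and 2.99 FPKM (-1.88), while Ngly1 stood at 8.31 and 6.63 FPKM (-0.29). The small MAF genes Mafk, Mafg and Maff had log2 ratios of -1.69, -1.57 and -0.75. Syvn1 and Sel1l, of the ligase complex that turns NRF1 over, had -1.73 and -1.31. These transcripts are long (median 3464 bases), and all genes of over 3000 bases had a median log2 ratio of -0.77. The part of length in this count was not tested.

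**Figure D5:**
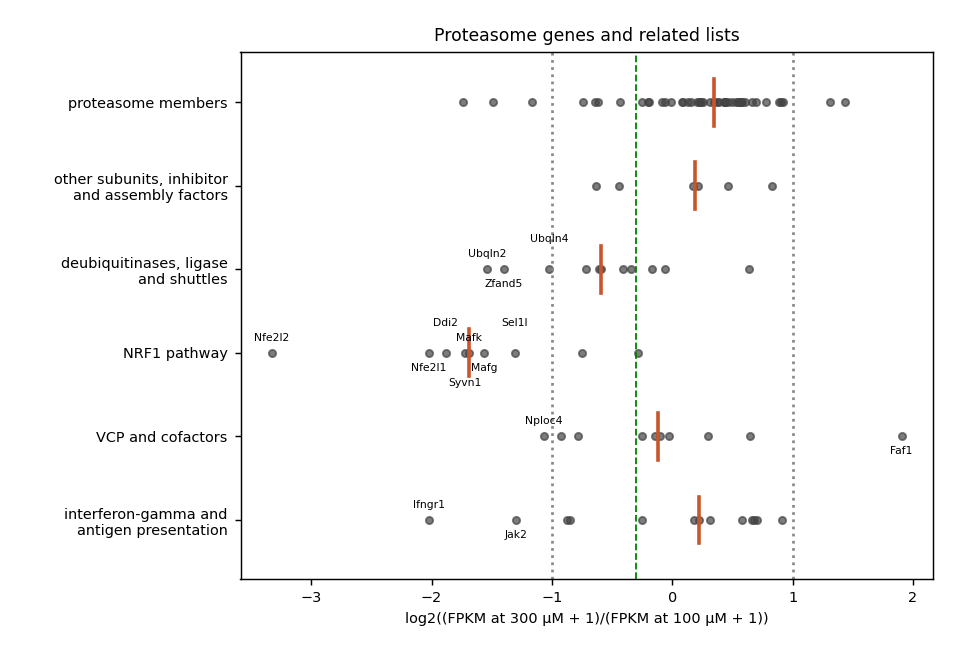
Log2 ratio of 300 µM over 100 µM of the proteasome genes and of 5 related lists, 1 point per gene compared, with list medians as bars, dotted lines at 2-fold and a dashed line at the median of all genes (-0.30). The NRF1 pathway lies to the left, with a median of -1.69.

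Further subunits and assembly factors, outside the symbol rule, were within 2-fold in 6 of 6 cases. Sem1, a small lid subunit, stood at 396.8 and 706.8 FPKM (0.83), and Pomp, the chaperone that matures the core, at 199.2 and 274.5 FPKM (0.46). The ubiquitin receptor gene Adrm1 stood at 139.0 and 156.4 FPKM (0.17) and the inhibitor gene Psmf1 at 18.9 and 22.05 FPKM (0.21). Akirin2, which brings proteasomes into the nucleus, had -0.63, and Ecpas, a proteasome adaptor, -0.44.

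Values of other ubiquitin system genes were mixed. The stress-inducible ubiquitin gene Ubb stood at 932.1 and 2855 FPKM (1.61) and Rps27a, which encodes ubiquitin fused to a ribosomal protein, had 0.80. Ubiquitin repeats are near-identical between genes, so the division of reads among them is uncertain. Of the E1 enzymes that activate ubiquitin, Uba1 stood at 87.52 and 84.79 FPKM and Uba6 at 10.54 and 2.54 FPKM (-1.70).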

How the data were processed

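RNA sequencing of 2 libraries was used, 1 at 100 µM and 1 at 300 µM formaldehyde. Per the file headers, the authors deposited FPKM, 1 table per library. The submitters' processing notes name Bowtie2 and RSEM, with no version. Which genome build and gene models were used is not given in the sources used here. FPKM from RSEM depends on how reads are divided among near-identical copies and, being relative to the library's total, on the most abundant transcripts.

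Gene numbers gave 17179 symbols from RefSeq (GRCm38) and 7 from GENCODE release M21, and 29 of 17215 stayed unnamed. Length and GC content came from 1 principal transcript per gene of that release, available for all 50 members. Depth came from genes with 1 annotated transcript. Products of FPKM and length fell within 0.12 of a whole multiple of 54 bases in 62.5% of 120 low values at 100 µM, and of 51.5 bases in 64.1% of 92 at 300 µM. Over the steps tried the median was 24.2% and 18.5%. Intervals are exact conditional binomial intervals from the reads so estimated, and cover counting error only.

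No test was run, with 1 library per dose. A gene was called at 2-fold on the log2(FPKM + 1) scale. Every member is named or counted, and of each related list the genes beyond 2-fold or, failing those, the 2 most abundant; other genes of these lists, and most markers, were named after their values were seen, and some are not reported here. Of 88 list and marker entries 86 matched by symbol. The members, lists and motifs were chosen with earlier results of these data known. Scaling, calling and filters were tested on simulated data. The simulated libraries had the same depth and transcript length, with as many genes raised as lowered. They lacked the length trend, unequal sums and excess of lower genes seen here, so they could not show which scale is right for these data. Figures were drawn with matplotlib 3.10.9, and values computed with scipy 1.17.1, pandas 2.3.3 and numpy 2.4.6 under Python 3.11.15.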

Additional observations from a re-analysis of the deposited data

How the results depend on the processing

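No paired analysis was possible because each dose had 1 library, and no library could be left out. Under pseudocounts of 0.1 and 5, no filter on low values and a mean of at least 10 FPKM, 2 proteasome genes were called higher and 2 to 3 lower, and the median log2 ratio lay between 0.30 and 0.36. All genes called under these settings were 258 to 833 higher and 1141 to 3420 lower, of 5340 to 17215. The scale mattered more. Centring on the median gene gave 6 of 47 members higher, beside 1472 of 10123 genes, and a median of 0.64. An unweighted TMM factor gave 9 higher, beside 1734 of all genes, and 0.73. Equal sums gave 1 higher, beside 219, 5 lower, beside 3847, and -0.018. A threshold of 1.5-fold gave 9 higher and 6 lower, beside 1901 and 4209 of all genes. At 3-fold 0 were higher and 1 lower, beside 123 and 1653. The mean over members was 0.20. With the trend of length and GC content removed the median was -0.22 and the difference between core and regulatory particle medians -0.026. Of the 47 members, 22 were higher and 7 lower on all 4 scales, and 18 changed sign. With 1 FPKM added to both levels, Psmb9 was 3.21% of Psmb6 at 100 µM. Without genes sharing over 25% of their words, a choice made after seeing the data, the median was 0.31. Of the genes called, Psme4 came within 2-fold with a pseudocount of 5 (-0.95), and Psme3 with the TMM factor (-0.78). Depth limited Psmb9 and Psmg3 most, and variation between cultures could not be measured.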

Other observations

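Of 11 genes for shuttle proteins, deubiquitinases and a ligase that act at the proteasome, 0 were called higher and 3 lower at 300 µM (27.3%, beside 29.8% of all genes), with a median log2 ratio of -0.59. The lower genes were the shuttle genes Ubqln2, at 46.3 and 15.3 FPKM (100 µM first), and Ubqln4, at 34.1 and 16.3 FPKM, and Zfand5. Zfand5, whose product stimulates the proteasome, stood at 28.6 and 10.2 FPKM. The shuttle gene Rad23b had a log2 ratio of -0.35. The proteasome deubiquitinase genes Usp14 and Uchl5 had -0.41 and -0.17.

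Genes of the VCP unfoldase, which extracts ubiquitin-tagged proteins from membranes and complexes, were mostly within 2-fold. Vcp stood at 253.5 and 212.8 FPKM (-0.25). Of 10 genes compared, 1 was called higher (6.09% of all genes were), Faf1, a VCP cofactor, at 3.41 and 15.5 FPKM. Called lower was 1 (29.8% of all genes were), Nploc4, another cofactor, at 26.1 and 11.9 FPKM. With a pseudocount of 5, after centring on the median gene and with a TMM factor 0 were lower, and with equal sums 3 were. Among 10123 genes, 1630, 2261, 2288 and 3847 were lower in these settings. Faf1 is left out where a mean of 10 FPKM is required. The list median was -0.12. The counts of both lists came from the same 2 libraries, with no replicate check.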
